A study of Homo sapiens with 8 samples.

Results

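The genes described here are the chemokine receptor CXCR4, the chemokines CXCL1, CXCL2, CXCL3, IL8 (current symbol CXCL8) and CCL20, and the NF-kB target and feedback genes NFKBIA, TNFAIP3, BIRC3 and RELB. All non-control probes carrying these 10 gene names were taken, which gave 13 of the 50599 probes and 10 of the 36337 gene names on the array. CXCR4 was selected on its rise with the inhibitor NU6102 in these same arrays, so its values in the WT and WT+NU6102 groups are a description without a test. The other genes, and the gene lists used below, were chosen with earlier results of these data known. Their counts set beside the shares of all genes are therefore not an independent comparison. RNA came from HCT-116, a human colorectal carcinoma line, and was hybridized to one-colour Agilent arrays of 60-base probes, with 2 biological replicates in each of 4 groups. WT cells were untreated parental cells in exponential growth, and WT+NU6102 cells were the same line after 24 h in 20 µM NU6102, a purine inhibitor of CDK1 and CDK2. CDK2 KO cells were an untreated isogenic CDK2-/- line obtained ready-made, so they represent 1 knockout line. R50 cells were selected for growth in 50 µM NU6102 and kept in it, so they differ from WT+NU6102 cells in dose, in length of exposure and in selection. All 4 groups were grown in the same serum-containing medium.

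NF-kB transcription factors are dimers of the REL family, to which RELB belongs. In resting cells they are held in the cytoplasm by inhibitors such as IkBα, the product of NFKBIA. Signals that activate the IKK kinases destroy the inhibitor, and the freed dimers bind kappaB sites in gene promoters. NFKBIA and TNFAIP3 are themselves targets and close a negative feedback loop, since TNFAIP3 encodes the ubiquitin-editing enzyme A20. BIRC3 encodes the ubiquitin ligase cIAP2, which takes part in TNF receptor signalling and survival. CXCL1, CXCL2, CXCL3 and IL8 are CXC chemokines that attract neutrophils through CXCR1 and CXCR2, CCL20 attracts cells carrying CCR6, and CXCR4 is the receptor for CXCL12. Colorectal carcinoma cells are a known source of CXC chemokines.

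The promoters of the CXC chemokines are shown because they share the sequence element that NF-kB reads. The 250 bases upstream of each annotated start were taken from RefSeq (GRCh38.p14), which held 9 of the 10 genes, all but RELB. Both strands were searched for the kappaB consensus, which reads 3 G, a purine, any 2 bases, 2 pyrimidines and 2 C, and for the 9-letter core GGAATTTCC, which overlaps the consensus. The consensus occurred upstream of 9.96% of the 35116 starts in the table, the core upstream of 0.413%, and one or the other upstream of 10.1%. Of the 9 genes found, 8 had a match to one of them. The exception was CXCR4, which had 0 matches upstream of its 3 annotated starts. The core was found in CXCL1, CXCL2, CXCL3, IL8 and, on the opposite strand, NFKBIA. The consensus matches printed below for NFKBIA, TNFAIP3 and BIRC3 also lie on the opposite strand, so their capitals read as the reverse complement. A match is a description of the letters and does not show binding in these cells. The 60-base windows around the matches follow on the strand of each gene, with matching letters in capitals. They lie at chr4:73869290-73869349 (plus strand) for CXCL1, chr4:74099238-74099297 (minus) for CXCL2, chr4:74038733-74038792 (minus) for CXCL3, chr4:73740452-73740511 (plus) for IL8, chr14:35404796-35404855 (minus) for NFKBIA, chr6:137867179-137867238 (plus) for TNFAIP3 and chr11:102317324-102317383 (plus) for BIRC3.
CXCL1: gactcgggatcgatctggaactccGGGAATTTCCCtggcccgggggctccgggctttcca
CXCL2: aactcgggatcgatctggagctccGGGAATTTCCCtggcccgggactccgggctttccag
CXCL3: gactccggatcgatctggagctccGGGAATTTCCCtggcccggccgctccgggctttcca
IL8: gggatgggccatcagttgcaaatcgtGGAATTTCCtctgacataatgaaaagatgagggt
NFKBIA: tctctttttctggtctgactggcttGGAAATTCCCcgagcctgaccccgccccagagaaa
TNFAIP3: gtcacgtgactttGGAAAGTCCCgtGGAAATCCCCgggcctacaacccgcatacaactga
BIRC3: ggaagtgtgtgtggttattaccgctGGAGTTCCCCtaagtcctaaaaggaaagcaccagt

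Compared position by position as printed, without gaps, the windows of CXCL1 and CXCL3 were identical at 56 of 60 bases. Those of CXCL1 and CXCL2 were identical at 48 of 60. IL8 was identical to CXCL1 at 18 of 60. In this count the last bases of the CXCL2 window fall out of register with those of CXCL1. The cores of IL8 and CXCL1 are not lined up either, so the counts for CXCL2 and IL8 can understate likeness. In CXCL1, CXCL2 and CXCL3 the core lay about equally far from the start, its first base at -78, -77 and -78. In IL8 it began at -91. The 2 matches of TNFAIP3 lay within 1 window, whereas the 2 of BIRC3 were farther upstream, at -199 and -135, and only the nearer is printed.

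**Figure D1:**
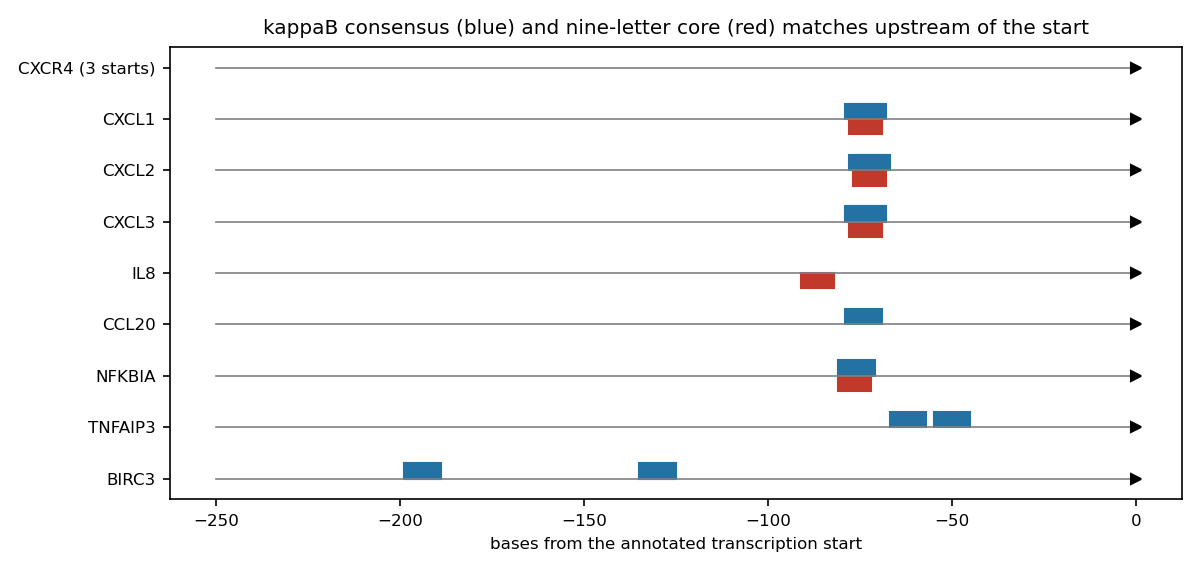
Matches to the kappaB consensus (blue) and to the 9-letter core (red) in the 250 bases upstream of the annotated transcription start (arrowhead), with 1 line per gene and distance in bases on the horizontal axis. The matches of CXCL1, CXCL2, CXCL3, CCL20 and NFKBIA lie between -81 and -68, and no match is drawn for CXCR4.

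Because CXCL1, CXCL2 and CXCL3 are close paralogs, the probes themselves were compared. One probe of CXCL1 (A_33_P3330264, hg19 chr4:74735646-74735705) and one of CXCL2 (A_24_P257416, hg19 chr4:74964342-74964401) cover the same stretch of the paralogous transcripts. They are printed with the overlapping 37 bases in capitals.
CXCL1 A_33_P3330264: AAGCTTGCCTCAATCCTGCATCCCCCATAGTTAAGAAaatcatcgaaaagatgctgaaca
CXCL2 A_24_P257416: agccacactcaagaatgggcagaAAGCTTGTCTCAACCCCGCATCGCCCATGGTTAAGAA
Of the 37 bases, 32 were identical and 5 differed, and the longest identical run was 8 bases. Of the 13 probes, 0 shared an identical run of 20 bases with a probe of another gene. Whether transcripts of one paralog bound to the probe of another was not tested.

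The scanner software marked 32376 to 36206 spots per array as well above background, and duplicate arrays correlated across probes at 0.994 to 0.996. The 6 epithelial markers EPCAM, KRT8, KRT18, KRT19, CDH1 and CDX2 were well above background on all 8 arrays. Of the markers of other cell types on the array, 2 of 4 leukocyte, 2 of 3 endothelial and 1 of 4 fibroblast markers were also above background on all 8 arrays, among them PTPRC between -2.57 and -2.18 on the normalized log2 scale, while the fibroblast markers COL3A1 and PDGFRB were above it on 0 arrays. CDK2 averaged -0.76 in WT, -0.43 in WT+NU6102, -1.10 in R50 and -1.53 in CDK2 KO cells, and was lower in CDK2 KO than in WT cells by a log2 difference of -0.77 (limma adjusted p = 0.000268) (under the minimum fold), so that a signal remained in the knockout. The arrays of WT and WT+NU6102 cells were on one slide and those of CDK2 KO and R50 cells on another. Treated against untreated WT cells, and R50 against CDK2 KO cells, were therefore compared within a slide, and in all other comparisons slide and group cannot be told apart. Each array averages a whole culture, so a change in the number of expressing cells and a change in RNA per cell cannot be told apart.

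Values below are normalized log2 signals, that is, the log2 of the processed intensity less the 75th percentile of the array, so that 0 is the level of a probe at that percentile. Probes of different genes are not compared with each other. Of the 13 probes, 12 exceeded background on both arrays of some group and were tested with limma among 28677 probes. A gene was called when its brightest tested probe moved by 1 log2 unit or more, the minimum fold, with a Benjamini-Hochberg adjusted p under 0.05.

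CXCR4, read by a probe with 10 spots per array (hg19 chr2:136871953-136872012, minus strand), stood at -3.92 and -3.76 in WT cells and at -0.83 and -0.72 in WT+NU6102 cells. In CDK2 KO cells it stood at -4.30 and -4.33, and in R50 cells at -4.12 and -3.97. The treated WT arrays were thus far above the other 6, and all 8 arrays were above background. The log2 difference of WT+NU6102 to WT was 3.07, a fold of 8.37, which is the value CXCR4 was selected on. Among the 19214 gene names above background on every WT and WT+NU6102 array it ranked first in that contrast, ahead of AXIN2 at 2.58. This fold depends on the background correction, since the log2 difference was 2.01 with a normexp correction. R50 cells, although kept in the inhibitor, had arrays just under the WT arrays, with a log2 difference of -0.20, and CDK2 KO arrays lay lowest with -0.48. R50 against CDK2 KO was tested because it shares no array with the selection. It gave a log2 difference of 0.27 (95% confidence interval 0.06 to 0.49) and was not called, since it lay under the minimum fold, with a limma adjusted p of 0.0572 (0.0133 to 0.205 under the alternatives, 0.0403 with the replicate block). CXCL12, the CXCR4 ligand, ranged from -3.89 to -3.30 in WT and from -3.54 to -3.21 in WT+NU6102 cells, which overlap, and passed the test in none of the 4 main comparisons.

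**Figure D2:**
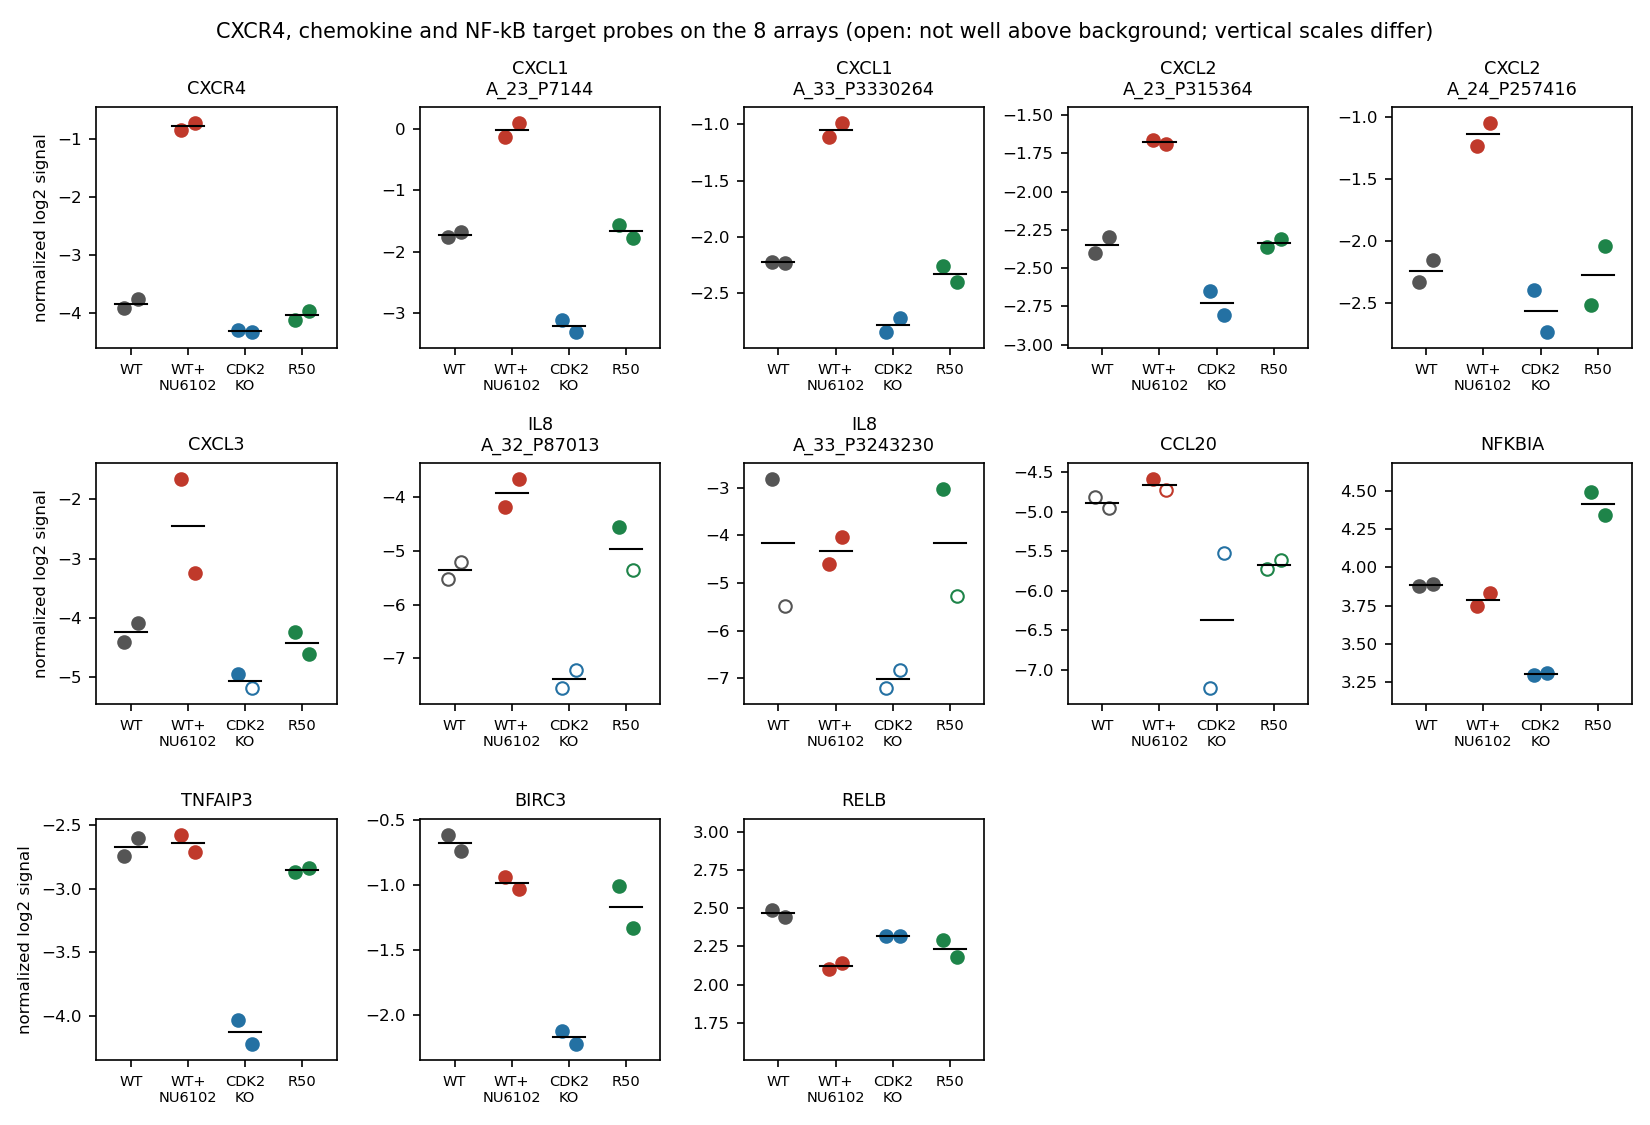
Normalized log2 signal (vertical axes, scales differ) of the 13 probes on the 8 arrays, with 1 point per array, a line at the mean of the 2 arrays of a group and open points for arrays not well above background. CXCR4 and CXCL1 are highest in WT+NU6102 cells, and TNFAIP3 and BIRC3 are lowest in CDK2 KO cells.

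With NU6102, 3 CXC chemokines rose and the feedback genes NFKBIA and TNFAIP3 did not pass the test. Of the 9 genes other than CXCR4, 8 were tested, and in WT+NU6102 against WT cells 3 were higher and 0 lower. Over all 21595 gene names tested, 1.13% were called higher and 5.17% lower. The median log2 fold change of the 8 genes was -0.04, beside 0.04 over all genes. This median depends on the probe taken for IL8. The brighter one gave -0.17 with duplicates far apart, and the other, below background in WT cells, gave 1.44.

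CXCL1, read by its brighter probe, stood at -1.76 and -1.68 in WT cells and at -0.13 and 0.09 in WT+NU6102 cells. The groups did not overlap, and the log2 fold change was 1.70 (SE 0.12, adjusted p = 0.000328). Its other probe, printed above, gave 1.17 (adjusted p = 0.000296). CXCL2, read by the printed probe, stood at -2.33 and -2.15 in WT and at -1.23 and -1.05 in WT+NU6102 cells, a log2 fold change of 1.1 (SE 0.19, adjusted p = 0.00642). The other CXCL2 probe gave 0.68 (adjusted p = 0.00110), which is under the minimum fold, so the sizes differ between the probes while the direction does not. CXCL3 stood at -4.41 and -4.08 in WT and at -1.66 and -3.25 in WT+NU6102 cells. Both treated arrays were above both untreated ones but lay far from each other, and the log2 fold change was 1.79 (SE 0.50, adjusted p = 0.0332). The CXCL3 call was lost without either WT, CDK2 KO or R50 array (adjusted p 0.0533 to 0.134) and within the slide alone (adjusted p = 0.0926). The log2 fold change was 1.0 without the first WT+NU6102 array and 2.58 without the second.

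IL8 has 2 probes that disagree. The brighter one stood at -2.82 and -5.48 in WT cells and at -4.60 and -4.04 in WT+NU6102 cells, and its duplicates differed too widely for a test to pass (log2 fold change -0.17, adjusted p = 0.911). The other probe was not well above background in WT cells, at -5.52 and -5.20, and was above it on both WT+NU6102 arrays, at -4.18 and -3.66. By that probe IL8 was at least 2.04-fold higher in WT+NU6102 cells. No test is given for it, because the probe entered the analysis only through the WT+NU6102 arrays, where it was high. The brighter probe, which stands for IL8 among the 8 tested genes, also entered only through the WT+NU6102 arrays. Its mean there was -4.32, beside -4.15 in WT cells. CCL20 was above background on only 1 of 8 arrays, a WT+NU6102 array at -4.59, and was not tested. Its other treated array stood at -4.73, its WT arrays at -4.82 and -4.96, its R50 arrays at -5.73 and -5.61 and its CDK2 KO arrays at -7.23 and -5.52.

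The feedback inhibitor NFKBIA stood at 3.88 and 3.89 in WT cells and at 3.75 and 3.83 in WT+NU6102 cells. Its log2 fold change was -0.09 (95% confidence interval -0.26 to 0.07, adjusted p = 0.316). TNFAIP3 stood at -2.74 and -2.60 in WT and at -2.58 and -2.71 in WT+NU6102 cells, and these overlapped, with a log2 fold change of 0.02 (95% confidence interval -0.20 to 0.24). The intervals of both genes lie within the minimum fold. BIRC3 stood at -0.62 and -0.74 in WT and at -0.94 and -1.03 in WT+NU6102 cells, with a log2 fold change of -0.30 (adjusted p = 0.0876). RELB stood at 2.49 and 2.44 in WT and at 2.10 and 2.14 in WT+NU6102 cells. Its log2 fold change of -0.35 passed the adjusted p (0.00454) but not the minimum fold. With a normexp background correction 1 of the 8 genes, CXCL1, was called, and CXCL2 at 0.85 and CXCL3 at 0.96 lay under the minimum fold.

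**Figure D3:**
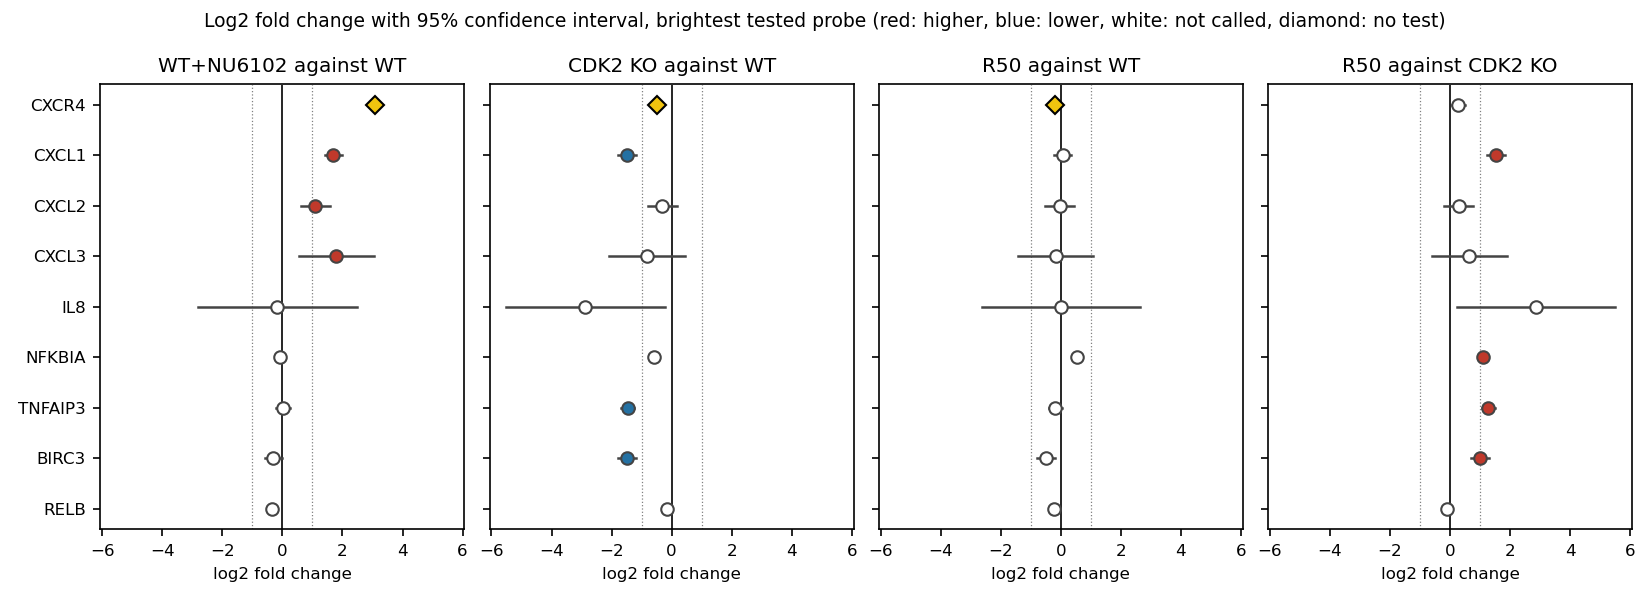
Log2 fold change (horizontal axis) with its 95% confidence interval for the brightest tested probe of 9 genes in 4 comparisons, with called genes in red or blue, genes not called in white and CXCR4 as a diamond without interval where it was not tested. The dotted lines mark the minimum fold. CXCL1, CXCL2 and CXCL3 lie to the right with NU6102 and IL8 near 0 with a wide interval, while CXCL1, TNFAIP3 and BIRC3 lie to the left in CDK2 KO cells.

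In CDK2 KO cells, CXCL1, TNFAIP3 and BIRC3 fell relative to WT cells, so that 0 of the 8 tested genes were higher and 3 lower. Over all genes 2.45% were called higher and 2.23% lower. All 8 fold changes were below 0, with a median of -1.14 beside 0.02 over all genes. The 8 include IL8 by its brighter probe (-2.87), which was below background on both CDK2 KO arrays. The count of signs and the median therefore rest in part on a value below background. CXCL1 stood at -3.11 and -3.30 in CDK2 KO cells, below both WT arrays, with a log2 fold change of -1.48 (SE 0.12, adjusted p = 0.000739). The other CXCL1 probe differed by -0.56 on the log2 scale, under the minimum fold (adjusted p = 0.00479). TNFAIP3 stood at -4.03 and -4.22 (log2 fold change -1.46, SE 0.09, adjusted p = 0.000326) and BIRC3 at -2.12 and -2.22 (log2 fold change -1.49, SE 0.12, adjusted p = 0.000701). Neither gene overlapped with its WT arrays.

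NFKBIA stood at 3.30 and 3.31 in CDK2 KO cells. Its log2 fold change of -0.58 passed the adjusted p (0.00249) and not the minimum fold. CXCL2 stood at -2.39 and -2.73 and CXCL3 at -4.95 and -5.18, and neither passed the test (log2 fold changes -0.32 and -0.82). RELB stood at 2.32 on both arrays, a log2 fold change of -0.15 (adjusted p = 0.0996). Both IL8 probes were below background on both CDK2 KO arrays, the brighter one at -7.20 and -6.83 and the other at -7.55 and -7.21. By the brighter probe IL8 did not pass the test (adjusted p = 0.0963), and 1 of 2 WT arrays was above background. No fold is given for the other probe because neither group was above background. With a normexp correction only BIRC3 of these genes kept a call, with CXCL1 at -0.93 and TNFAIP3 at -0.70, and by the methods' t-test after Benjamini-Hochberg adjustment 0 genes were called.

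In R50 against WT cells 0 of the 8 genes were called higher or lower by limma, while 3 had an unadjusted p under 0.05 and 0 were called by the methods' t-test, adjusted or not. Over all genes 1.72% were called higher and 0.912% lower. CXCL1 stood at -1.56 and -1.77 in R50 cells and overlapped the WT arrays, with a log2 fold change of 0.06 (95% confidence interval -0.24 to 0.35). TNFAIP3 stood at -2.87 and -2.84, just below WT (log2 fold change -0.19, adjusted p = 0.191). CXCL2 stood at -2.51 and -2.04 and CXCL3 at -4.23 and -4.61, and both overlapped WT. NFKBIA stood at 4.49 and 4.34, above all other arrays, with a log2 fold change of 0.53 (adjusted p = 0.00576). BIRC3 stood at -1.01 and -1.33 (log2 fold change -0.49, adjusted p = 0.0365) and RELB at 2.29 and 2.18 (log2 fold change -0.24, adjusted p = 0.0349). These 3 genes passed the adjusted p and not the minimum fold, NFKBIA upward and the other 2 downward.

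Against CDK2 KO cells, which were on the same slide, R50 cells had higher CXCL1, NFKBIA, TNFAIP3 and BIRC3, so that 4 of the 8 genes were higher and 0 lower. Over all genes 2.80% were called higher and 2.31% lower, and the median log2 fold change was 1.06 for the 8 genes and -0.06 for all genes. The median of the 8 includes the brighter IL8 probe at 2.87, which was below background on both CDK2 KO arrays. The other CXCL1 probe gave 0.45 (adjusted p = 0.00848), under the minimum fold. The log2 fold changes of the brightest probes were 1.54 for CXCL1 (adjusted p = 0.000581), 1.27 for TNFAIP3 (adjusted p = 0.000434) and 1.11 for NFKBIA (adjusted p = 0.000270). BIRC3 was at the minimum fold with 1.0 (adjusted p = 0.00222) and fell short of it without the second CDK2 KO array (0.95) or the first R50 array (0.85). CXCL2 and CXCL3 did not pass (0.29 and 0.64), and RELB differed by -0.09 (95% confidence interval -0.23 to 0.05). IL8 stood at -4.56 and -5.36 in R50 cells by its dimmer probe, with only the first array above background, so no bound is given against CDK2 KO cells. By its brighter probe R50 cells stood at -3.03 and -5.27, far apart as in WT cells (adjusted p = 0.0906). This comparison and the CDK2 KO against WT comparison share the CDK2 KO arrays and are not independent of each other. With a normexp correction only NFKBIA was called, with CXCL1 at 0.96, BIRC3 at 0.72 and TNFAIP3 at 0.63, and after adjustment the methods' t-test called 0.

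The cells exposed to the inhibitor for 24 h and those kept in it differed in CXCL1, CXCL2 and CXCL3. In R50 against WT+NU6102 cells, 0 of 8 genes were higher and 3 lower, beside 3.08% lower over all genes. The 3 were CXCL1 (log2 fold change -1.65, adjusted p = 0.000179), CXCL2 (-1.13, adjusted p = 0.00453) and CXCL3 (-1.97, adjusted p = 0.0208). The other CXCL1 probe gave -1.28 (adjusted p = 0.000113). The other CXCL2 probe gave -0.65 (adjusted p = 0.000802), under the minimum fold. NFKBIA was higher in R50 cells by 0.62 (adjusted p = 0.000707), also under the minimum fold. IL8 differed by 0.17 by its brighter probe (adjusted p = 0.907) and by -1.04 by the other, given without a test. Without the first R50 array, 1 gene was called. In CDK2 KO against WT+NU6102 cells 5 genes were lower, namely CXCL1, CXCL2, CXCL3, TNFAIP3 and BIRC3, beside 3.41% over all genes. By its brightest probe CXCL1 had the largest of these differences (-3.19, adjusted p = 3.48e-05). The other CXCL1 probe gave -1.73 (adjusted p = 5.41e-05), a smaller difference than that of CXCL3 (-2.61, adjusted p = 0.00715). CXCL2 gave -1.42 by its brightest probe and -1.05 by the other. By its dimmer probe IL8 was at least 2.29-fold lower in CDK2 KO than in WT+NU6102 cells, again without a test. Across the 4 groups, 4 of the 8 genes passed an F-test at an adjusted p under 0.001 (CXCL1, NFKBIA, TNFAIP3 and BIRC3), beside 22.1% of all genes.

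The order of the groups differed between genes. For CXCL1 the order was WT+NU6102, then R50 and WT, which did not differ beyond their spread, then CDK2 KO. For NFKBIA it was R50, WT, WT+NU6102 and CDK2 KO, and WT and WT+NU6102 did not pass the test. For TNFAIP3 it was WT+NU6102, WT and R50 within a narrow range and CDK2 KO well below. For BIRC3 it was WT, WT+NU6102, R50 and CDK2 KO, with the first pair and the middle pair not passing the test. For RELB all 4 groups lay between 2.10 and 2.49.

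Other genes of the pathway were read from 3 lists that hold none of the 10 genes. These lists too were chosen with earlier results of these data known. Of 46 NF-kB and IKK signalling genes, which include the subunits, the kinases and the receptors upstream, 43 were tested. With NU6102, 0 were higher and 2 lower (4.65%, near the 5.17% of all genes), with a median log2 fold change of 0.00. The 2 were TLR3, a sensor of double-stranded RNA (-0.79 and -0.94 in WT, -2.63 and -2.64 in WT+NU6102 cells, log2 fold change -1.77, adjusted p = 0.000187), and CYLD, a deubiquitinase that restrains the pathway, which was below background in WT+NU6102 cells and at least 3.32-fold lower there (adjusted p = 0.000457). CYLD falls outside the rule for naming genes and was chosen after its values were seen. In CDK2 KO cells 1 signalling gene was called, TLR3 at -1.98 and -2.19 (log2 fold change -1.22, adjusted p = 0.000717), beside 2.23% of all genes lower. With a normexp correction the signalling genes called were 1 with NU6102 and 0 in CDK2 KO cells. In R50 against WT cells 0 were called by limma, although 12 passed the adjusted p alone, 1 higher and 11 lower. The share of all genes passing without a minimum fold is not given here, so this count has no background beside it. The median log2 fold change of the list was -0.09, beside -0.04 over all genes. Against CDK2 KO cells 1 rose, the nuclear IkB family member BCL3, which stood at 0.81 and 0.86 in CDK2 KO and at 2.01 and 1.96 in R50 cells (log2 fold change 1.15, adjusted p = 0.000162).

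Of 46 other known NF-kB targets, 31 were tested. With NU6102, 1 was higher and 4 lower (3.23% and 12.9%, beside 1.13% and 5.17% of all genes). F3, the tissue factor that starts coagulation, rose from 0.44 and 0.42 in WT to 2.0 and 1.93 in WT+NU6102 cells (log2 fold change 1.54, adjusted p = 8.54e-05). The 4 that fell were the complement factor CFB (-1.71), the cytokine IL18 (-1.58), the siderophore-binding LCN2 (-1.28) and TNFAIP2 (-1.20), with adjusted p between 8.54e-05 and 0.00168.

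In CDK2 KO cells 1 of the 31 was higher and 7 lower (3.23% and 22.6%, beside 2.45% and 2.23% of all genes), with a median log2 fold change of -0.33 beside 0.02 over all genes. LCN2 stood at 0.68 and 0.70 in WT and at -2.66 and -2.61 in CDK2 KO cells (log2 fold change -3.33, adjusted p = 8.12e-06). LIF, a cytokine of the IL-6 family, fell by 1.57, IL18 by 1.52, the urokinase gene PLAU by 1.25 and F3 by 1.23 on the log2 scale, with adjusted p between 5.08e-05 and 0.000109. CFB was below background in CDK2 KO cells and at least 6.51-fold lower there (adjusted p = 0.000335). The complement component C3 had a log2 fold change of -1.19 (adjusted p = 0.00903). CFB and C3 fall outside the rule for naming genes here and were chosen after their values were seen. The single rise was ICAM1, the adhesion molecule, which was chosen after its values were seen. It was below background on the 6 arrays of the other groups, between -6.72 and -5.30, stood at -0.33 and -0.32 in CDK2 KO cells, and was at least 24.6-fold higher there than in WT cells. It passed the filter on dim probes only through the CDK2 KO arrays, so it and the count of 1 higher are given as a description without a test.

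In R50 against WT cells 3 of the 31 were higher and 0 lower (9.68% higher, beside 1.72% of all genes). They were the complement component C3, from -2.76 and -2.90 to -0.70 and -0.55 (log2 fold change 2.21, adjusted p = 0.00224), LCN2, to 2.41 and 2.37 (1.70, adjusted p = 9.09e-05), and F3, to 2.09 and 2.03 (1.64, adjusted p = 0.000122). Against CDK2 KO cells 7 were higher and 2 lower (22.6% and 6.45%, beside 2.80% and 2.31% of all genes). Among genes above background on all 4 arrays compared, LCN2 (log2 fold change 5.03), C3 (3.40), F3 (2.87), IL18 (2.19) and LIF (1.87) had the largest rises, with adjusted p from 4.28e-06 to 0.000265. CFB, below background in CDK2 KO cells, was at least 10.0-fold higher in R50 cells (adjusted p = 0.000180). It falls outside the naming rule in this comparison and was chosen after its values were seen. The 2 lower were ICAM1, at least 25.6-fold and without a test for the same reason, and TNFAIP8, a regulator of cell death (log2 fold change -1.08, adjusted p = 0.000225), which was also chosen after its values were seen. The median log2 fold change over the 31 was 0.51, beside -0.06 over all genes.

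Of 49 other chemokines and chemokine receptors only 22 were tested. With NU6102, 0 were higher and 3 lower (13.6%, beside 5.17% of all genes), of which CCL3 was above background on all arrays, at -1.97 and -2.0 in WT and at -3.18 and -2.82 in WT+NU6102 cells (log2 fold change -1.02, adjusted p = 0.00141). In CDK2 KO cells 0 were higher and 1 lower (4.55%, beside 2.23% of all genes), in R50 against WT cells 0 were called by limma, with 1 lower by adjusted p alone, and in R50 against CDK2 KO cells 2 were higher and 0 lower (9.09%, beside 2.80% of all genes). The other called genes were dim and were chosen after their values were seen. Their calls are included in the counts and percentages above, which are therefore a description and not a test. CCL5 and CCR7, a lymphoid homing receptor, were above background on both arrays in WT cells only, and CCL28 in R50 cells only, so each entered the analysis through the group where it was high and is given without a test against that group. With NU6102 both CCL5 and CCR7 were below background, CCL5 at least 2.47-fold and CCR7 at least 1.41-fold lower than in WT cells. CCL5 was also the gene called in CDK2 KO cells, where it was below background and at least 2.74-fold lower. The 2 genes called higher in R50 than in CDK2 KO cells were CCL28, at least 4.46-fold, and CCL5, which was above background on 1 of the 2 R50 arrays and on 0 of the CDK2 KO arrays. With a normexp correction 0 genes of this list were called in any of the 4 comparisons, and with quantile normalization 1 was called with NU6102.

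**Figure D4:**
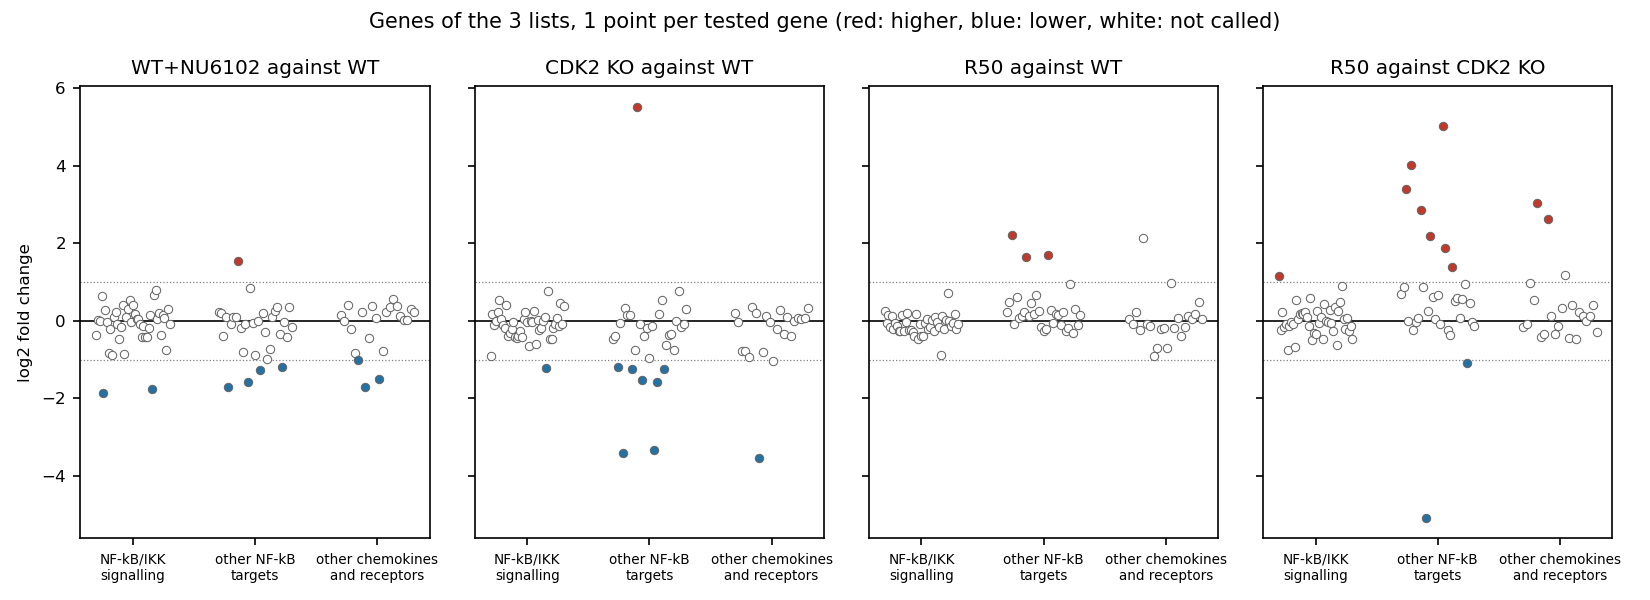
Log2 fold change (vertical axis) of every tested gene of the 3 lists in 4 comparisons, with 1 point per gene, called genes in red or blue and the minimum fold as dotted lines. The other NF-kB targets spread widest, with 7 genes higher in R50 than in CDK2 KO cells and ICAM1 as the point above 5 in CDK2 KO cells, while most signalling genes lie between the dotted lines.

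The genes whose pattern over the 8 arrays was most like that of CXCR4 were found among 13286 gene names above background on all arrays, by the root mean square difference of log2 values centred on their mean. They were SNAR-G1 (0.37), DDIT3 (0.42), INF2 (0.43), VGF (0.53) and TTC14 (0.53). All 5 were higher in WT+NU6102 than in WT cells, by log2 differences between 1.75 and 2.31. This direction follows from picking them for their likeness to CXCR4. DDIT3 encodes the stress-induced transcription factor CHOP, and SNAR-G1 belongs to a family of near-identical small RNAs whose signal is uncertain between copies. Measured in the same way, the genes most like the brighter IL8 probe were HOXB8 (0.84), HBE1 (0.92), TNIK (0.92), IL15 (0.93) and OR51B4 (0.94). They were all lower in CDK2 KO cells, which again follows from picking them for their likeness to that probe. That probe was above background on 4 of 8 arrays and on neither CDK2 KO array, and its duplicates lay far apart in WT and R50 cells, so these distances rest in part on values below background.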

How the data were processed

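Total RNA was labelled with Cy3 and hybridized to Agilent arrays. The authors deposited scanner files with the processed intensity of each spot, background-subtracted by Agilent Feature Extraction 11.5.1.1 and not normalized between arrays, and processed log2 values per probe, which were used as an alternative. Control and outlier spots were left out, log2 intensity was taken less the 75th percentile of each array, and spots of a probe were averaged. The 28677 probes that exceeded background on both arrays of some group were tested (R 4.3.3 with limma 3.58.1) in 1 fit over 8 arrays, two-sided, adjusted by Benjamini-Hochberg over all tested probes, and the script was tested on simulated data. A gene was read from its probe with the highest mean. An "at least" fold sets the mean of the brighter group against the detection floor of the dimmer one. The 10 genes and the 3 lists were chosen with earlier results of these data known. From each list, up to 5 called genes per comparison with the largest change and above background on all 4 arrays compared were named. Positions are on hg19 as annotated in the files of WT and WT+NU6102 cells. IL8 was matched to CXCL8 by its transcript. Promoters are from RefSeq, and figures were drawn with Python 3.11.15 and matplotlib 3.10.9. The alternatives tried were normexp (offset 50), quantile normalization, no or a stricter dim-probe filter, the deposited processed values, a prior variance trended on intensity, a replicate block, fits within a slide, other probes, no minimum fold, the methods' t-test and ANOVA, and leaving out each array. Precision is limited by having 2 arrays per group. The qRT-PCR and protein measurements were not analysed here.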

Additional observations from a re-analysis of the deposited data

How the results depend on the processing

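Under the alternatives, 110 counts for the 9 genes other than CXCR4 stayed within 1.5 times the reported count and 22 did not. These are counts of called genes and of genes past the F-test. A count that stayed can stand for different genes. With the other tested probes the count for WT+NU6102 against WT was again 3. There CXCL2 at 0.68 was under the minimum fold, and IL8 at 1.44, by the probe given above without a test, was counted. With normexp correction the count was 1 for WT+NU6102, for CDK2 KO against WT, for R50 against CDK2 KO and for R50 against WT+NU6102, and 3 for CDK2 KO against WT+NU6102. With the methods' t-test after Benjamini-Hochberg adjustment it was 1 for WT+NU6102, 0 for CDK2 KO, 0 for R50 against CDK2 KO and 1 for R50 against WT+NU6102. Without a minimum fold, R50 against WT had 3. Leaving out single arrays gave 1 to 3 for R50 against WT+NU6102, the 1 without the first R50 array. The F-test count of 4 was 1 without a filter on dim probes, 0 by the methods' ANOVA, 2 with a replicate block and 1 to 2 without single arrays. Differences between replicate numbers correlated between groups at -0.03 to 0.05, so the numbers were not taken as pairs, and the replicate block moved no other count by over 1.5 times.

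Small differences turned sign, and the ranges without single arrays follow. In R50 against WT these were CXCL1 (-0.05 without R50 replicate 1, range -0.05 to 0.16, -0.11 by its other probe), CXCL2 (0.03 with normexp, 0.06 without WT replicate 2, 0.20 without R50 replicate 1, range -0.27 to 0.20, 0.02 by its other probe) and CXCL3 (0.02 with normexp and 0.02 without R50 replicate 2, range -0.36 to 0.02). In WT+NU6102 against WT they were IL8 (1.16 without WT replicate 1, 0.11 without WT+NU6102 replicate 1, range -1.50 to 1.16, 1.44 by its other probe) and TNFAIP3 (-0.05 without WT replicate 1, -0.04 without WT+NU6102 replicate 1, range -0.05 to 0.09). Over all genes, normexp correction called 118 higher and 401 lower with NU6102 and 266 higher and 222 lower in CDK2 KO cells, fewer than the main setting. Of the counts of called genes in the 3 lists, 18 stayed within 1.5 times the reported count and 18 did not. The cause was not tested. Dim probes (IL8, CCL20, CXCL3) limit the size that can be given to a change.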
